A study of Mus musculus with 8 samples.

Results

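The nuclear-encoded subunits of the mitochondrial respiratory chain and of ATP synthase were described in the hippocampus of mice that ran mildly, ate astaxanthin, or did both. Astaxanthin is a carotenoid pigment, here from the alga Haematococcus pluvialis. Genes were taken by symbol, from the array's own annotation: the Nduf subunits of complex I, the Uqcr subunits of complex III, the Cox subunits of complex IV and the Atp5 subunits of complex V. This gave 80 genes on the array, of which 39 could be tested, among 26173 genes and unnamed transcripts tested in all.

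The samples came from male wild-type C57BL/6J mice aged 11 weeks when obtained, with 8 mice in each of 4 groups. The ME group ran on a treadmill at mild intensity and ate the powder diet with placebo. The AX group stayed sedentary and ate astaxanthin powder, the AX+ME group ran and ate astaxanthin powder, and the SED group stayed sedentary on placebo. The powder, placebo or astaxanthin, made up 0.5% of the diet in every group, and the astaxanthin powder held 2% astaxanthin. Running intensity was set from the ventilatory threshold. Total RNA of powdered whole hippocampus was measured in 2 samples a group, replicate 1 labelled with the dye Cy3 and replicate 2 with Cy5. Each sample was alone on its array, and the 8 arrays shared 1 slide.

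The sources used here do not state how the 8 mice of a group became 2 samples, so p-values measure only the spread between these samples, which may be technical. In homogenised tissue, fewer cells of a type and less RNA per cell cannot be told apart. Of 12 marker genes of hippocampal neurons, 11 were tested, and all 11 were well above background on all 8 arrays. Each slide column held 1 group and each slide row 1 dye, so group and position on the slide cannot be told apart. Both SED arrays carried swirl-shaped dim areas in their first 69 spot columns. Below column 70, 7.4% of 13920 spots deviated in both SED samples by over 0.5 log2 in the same direction, against 0.334% of 20043 spots from column 70 on. Results are therefore given over all columns and again from column 70 on.

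Complex I takes electrons from NADH and passes them to ubiquinone, complex III passes them on to cytochrome c, and complex IV hands them to oxygen. The proton gradient built along the way drives complex V, the ATP synthase. Neurons depend on this chain for the ion pumping that follows synaptic activity, and its subunit mRNAs are among the abundant messages of brain. A few complex IV subunits exist as isoforms tied to heart and muscle, lung or testis.

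The brightness of these genes limited what the arrays could measure. In 40 of the 80 genes every probe was saturated, meaning at the scanner's ceiling, on at least 1 array, and for 26 of them the brightest probe was saturated on all 8 arrays. These 40 genes had only a lower bound on at least 1 array and were not tested. They included the core subunits Ndufs3, Ndufs7 and Ndufv1 of complex I, Uqcrc2 of complex III, and the catalytic subunits Atp5a1 and Atp5b of ATP synthase. The general isoforms Cox4i1, Cox6a1, Cox7a2, Cox7b and Cox8a of complex IV were saturated too. Cox8c, a testis isoform, was not well above background on both arrays of any group.

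The tested genes divided as 19 of 37 in complex I, 5 of 8 in complex III, 9 of 18 in complex IV and 6 of 17 in complex V. In 18 of the 39, the raw spot signal averaged at least 50% of the scanner ceiling over the 8 arrays. That was so for 9 complex I genes, 3 of complex III, 1 of complex IV and 5 of complex V. Average raw signals ran from 0.571% to 80.6% of the ceiling in complex I, from 42.6% to 77.6% in complex III, from 0.376% to 71.4% in complex IV and from 39.3% to 68.2% in complex V. The complex IV genes left for testing were thus mostly dim tissue isoforms, while those of complexes III and V were bright.

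**Figure D1:**
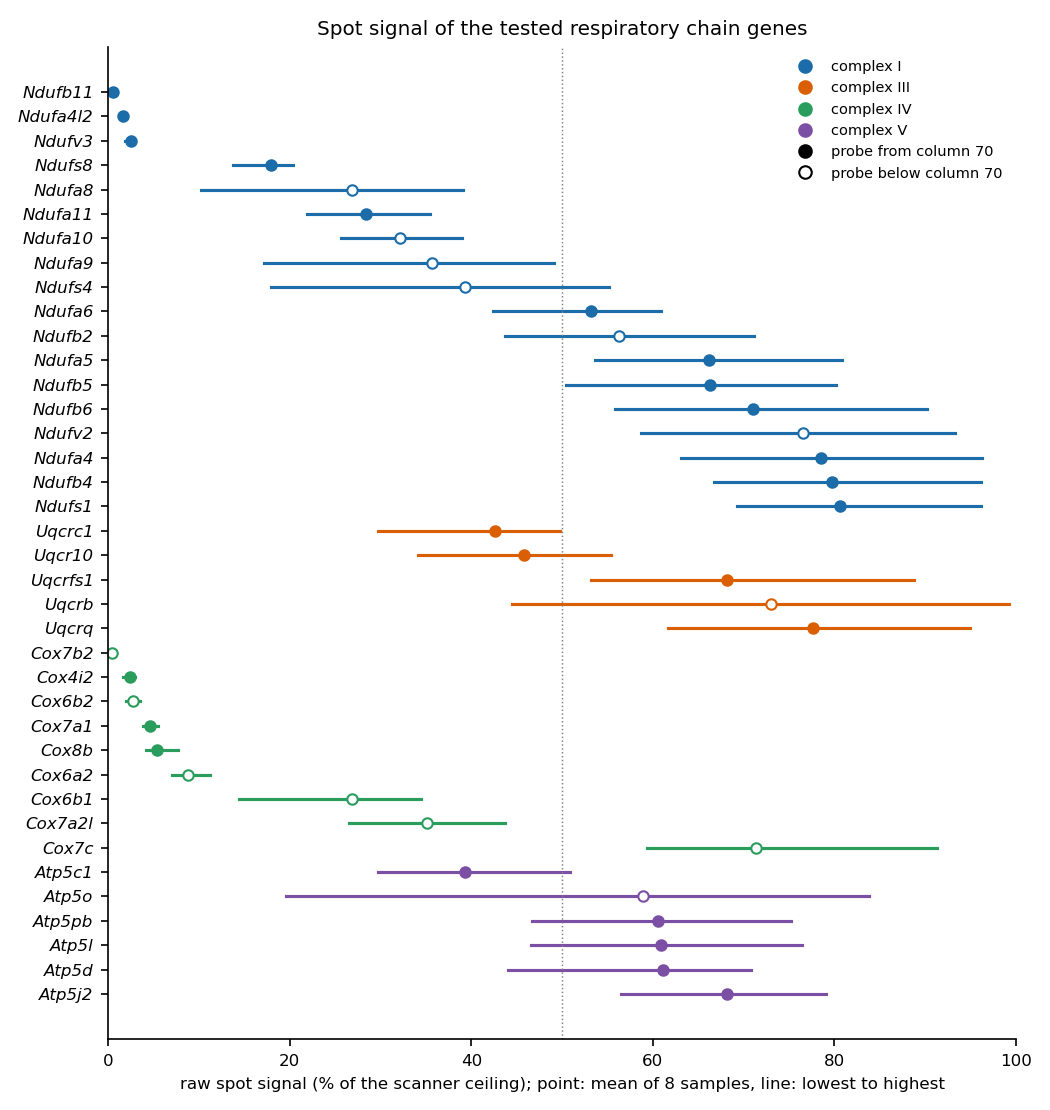
Raw spot signal of the tested genes as a percentage of the scanner ceiling, with 1 gene per row, the point at the mean of 8 samples and the line from the lowest to the highest sample. Colours mark the complexes, open points mark probes below column 70, and the dotted line stands at 50%. Most complex IV genes sit at the left, while complexes III and V lie between 39.3% and 77.6%.

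Levels below are log2 values of the processed signal after division by each array's 75th percentile, so that 0 is that percentile. A level belongs to its probe, and brightness also depends on the probe sequence. For example, the tested probes of Ndufb11 and Ndufv3, both complex I subunits, were 7.81 and 5.38 log2 dimmer than a saturated probe of the same gene. Within complex I, the brightest tested probe was that of Ndufv2, an iron-sulphur subunit of the NADH-binding arm, at a mean level of 4.92, and the dimmest was that of Ndufb11 at -2.79. In complex III they were Uqcrb, a ubiquinone-binding subunit, at 4.71 and Uqcrc1, a core subunit, at 3.74. In complex IV they were Cox7c, a small structural subunit, at 4.72 and Cox7b2, a testis isoform, at -3.55. In complex V they were Atp5j2, a membrane subunit, at 4.59 and Atp5c1, the rotating central stalk, at 3.71.

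Running alone was compared with sedentary placebo first. Over all columns, 2 respiratory chain genes were higher in ME than in SED and 1 was lower, by limma with Benjamini-Hochberg adjustment over all 26173 features. Atp5o and Ndufa8 rose and Cox7c fell. These 3 of 39 genes are 7.69%, beside 3.34% called among all features, 2.02% higher and 1.33% lower. The used probes of all 3 lay below column 70, in columns 46, 49 and 33, and in the fit from column 70 on 0 of 27 members passed, as did 0% of all 16820 features. In that fit 3903 features had an unadjusted p under 0.05.

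Atp5o encodes the oligomycin sensitivity conferring protein, which links the catalytic head of ATP synthase to its peripheral stalk. Its log2 levels were 4.56 and 4.48 in ME, 4.46 and 4.40 in AX, 4.44 and 4.42 in AX+ME, and 3.23 and 3.37 in SED. Both SED samples lay far below the other 6, and the groups of those 6 lay close together. The difference was 1.22 ± 0.0742 (SE, adjusted p = 0.0105) for ME minus SED, 1.13 (adjusted p = 0.0118) for AX minus SED and 1.13 (adjusted p = 0.0110) for AX+ME minus SED, all by limma. Of 31 spots within 3 rows and columns of the Atp5o spot, 7 also deviated by over 0.5 log2 in both SED samples. Each of these calls was lost when any 1 of the ME, AX or AX+ME samples was left out (differences 1.09 to 1.27), and was kept without either SED sample. The fits without an ME, AX or AX+ME sample lost nearly all calls among all features as well.

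Ndufa8 encodes an accessory subunit of complex I that faces the intermembrane space. Its log2 levels were 3.49 and 3.50 in ME, 3.43 and 3.41 in AX, 3.42 and 3.40 in AX+ME, and 2.39 and 2.33 in SED. The SED samples again stood alone and low. The limma difference from SED was 1.14 ± 0.0488 (SE, adjusted p = 0.00790) in ME, 1.06 (adjusted p = 0.00857) in AX and 1.05 (adjusted p = 0.00863) in AX+ME. Of 22 neighbouring spots, 2 deviated in the same way as defined above. Leaving out any 1 of the ME, AX or AX+ME samples ended the Ndufa8 calls too (differences 1.05 to 1.16), along with nearly all calls among all features. No second unsaturated probe of either gene was tested, and the part of the dim areas in both results was not tested.

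Cox7c showed the opposite direction. Its log2 levels on the probe in column 33 were 4.63 and 4.66 in ME, 4.54 and 4.60 in AX, 4.54 and 4.59 in AX+ME, and 5.13 and 5.05 in SED, so both SED samples were above the other 6. The limma difference from SED was -0.44 (adjusted p = 0.0415) in ME, -0.52 (adjusted p = 0.0300) in AX and -0.52 (adjusted p = 0.0270) in AX+ME. The raw signal of the same spot ran otherwise: 62.9% and 91.3% of the ceiling in ME, 62.7% and 86.8% in AX, 68.9% and 78.7% in AX+ME, and 59.4% and 60.1% in SED. The raw values were thus lowest in SED, whereas the scanner software's background-subtracted and detrended values were highest there. With normexp background correction of the raw signals instead, the difference from SED turned to 0.12 in ME, 0.030 in AX and 0.031 in AX+ME. Of 24 neighbouring spots, 3 deviated in the same way as defined above. In SED the spot deviated by 0.556 with Cy3 and 0.432 with Cy5 from the mean of the other samples of that dye. The median of its neighbours deviated by 0.383 and 0.172. What the surroundings contribute to the Cox7c result was not tested.

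A second, much dimmer Cox7c probe in column 97 had levels of -2.69 and -2.64 in ME, -2.76 and -2.61 in AX, -2.63 and -2.71 in AX+ME, and -2.40 and -2.50 in SED. It too was highest in both SED samples, and its difference for ME minus SED was -0.22 (limma adjusted p = 0.197, from column 70 on), which did not pass. The calls on the column 33 probe were lost without any 1 of the ME, AX or AX+ME samples (differences -0.54 to -0.43), as were nearly all calls among all features.

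**Figure D2:**
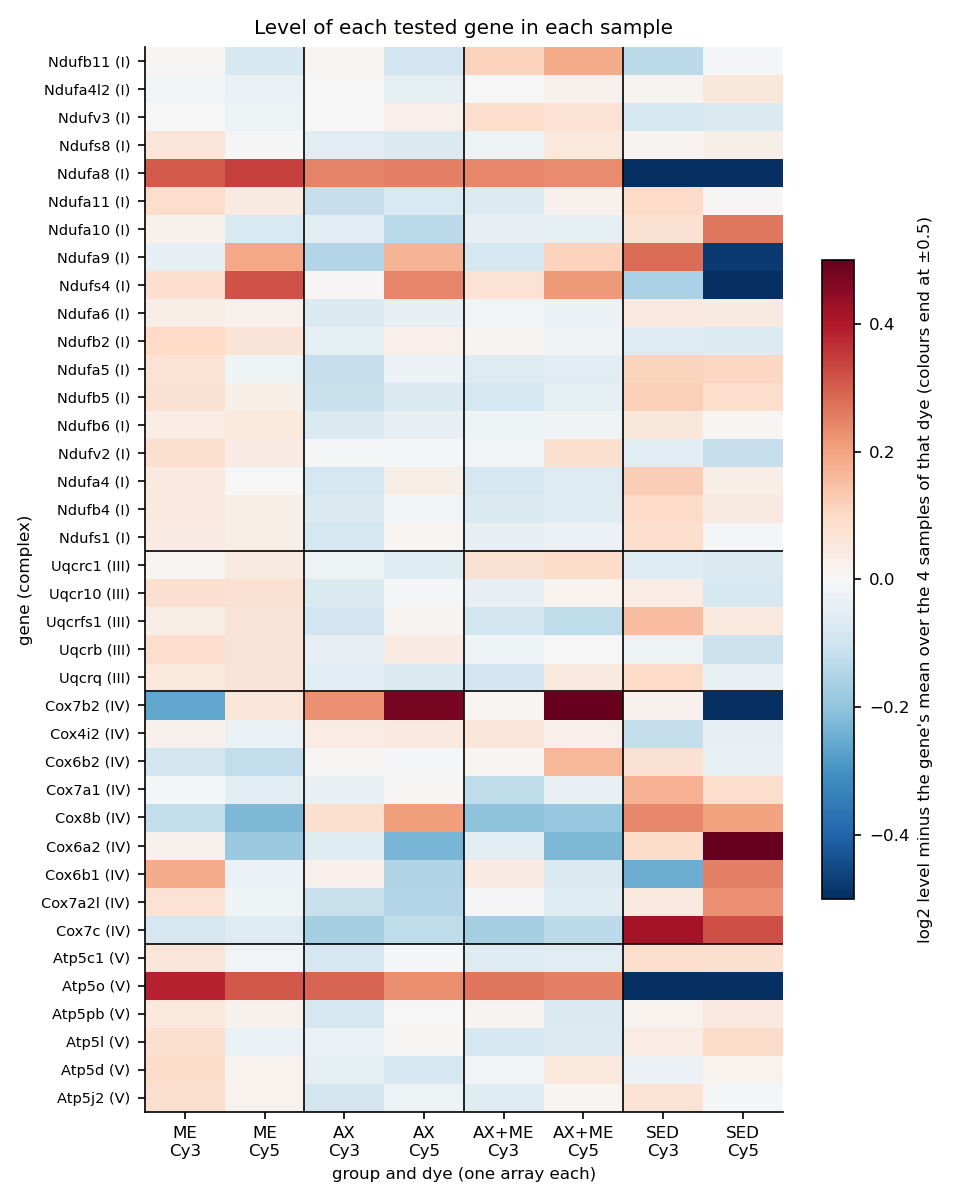
Level of the tested genes (rows, with its complex) in each sample (columns, group and dye), as the log2 level minus the gene's mean over the 4 samples of the same dye. Red is higher and blue lower, with colours ending at ±0.5. Ndufa8 and Atp5o are blue in both SED samples and Cox7c is red there, while most other rows stay pale.

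Each comparison with sedentary placebo used the same SED samples. AX minus SED gave the same 3 calls over all columns, again 7.69% of members beside 3.71% of all features (2.25% higher, 1.46% lower), and none of 27 from column 70 on, beside 0% (4298 features at unadjusted p under 0.05). AX+ME minus SED gave 4 calls over all columns, 10.3% beside 6.93% (3.87% higher, 3.05% lower). The fourth was Cox8b. From column 70 on, 1 of 27 members passed, a probe of Uqcrb, beside 2.25% of features (0.779% higher, 1.47% lower).

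Cox8b encodes a subunit of complex IV that in rodents is known from heart, skeletal muscle and brown fat. Its probe lay in column 119, away from the dim areas, and 0 of 27 neighbouring spots deviated in SED. Its log2 levels were 0.57 and 0.55 in ME, 0.77 and 0.99 in AX, 0.49 and 0.59 in AX+ME, and 0.93 and 0.98 in SED. Both running groups lay below both sedentary groups with no overlap, and AX overlapped SED. In AX+ME minus SED it fell by 0.42 on the log2 scale (SE 0.0726, limma adjusted p = 0.0488). With adjustment over the features from column 70 on, the same difference had an adjusted p of 0.0525 and did not pass. The call was also lost without any 1 of the 8 samples (difference -0.44 to -0.39, limma adjusted p = 0.0680 to 0.227).

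The other Cox8b differences did not pass the threshold. ME minus SED was -0.39 (limma adjusted p = 0.0692), AX+ME minus AX was -0.34 (adjusted p = 0.595) and AX minus SED was -0.08 (adjusted p = 0.535, 95% interval -0.27 to 0.12). Whether running acted differently under the 2 diets was tested by the interaction, the running difference under astaxanthin less that under placebo, which was 0.05 for Cox8b (adjusted p = 0.833, interval -0.22 to 0.33).

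Markers of other tissues moved beside Cox8b. Of 8 choroid plexus genes, 7 were tested, without Ttr, the most abundant of them in that tissue. In ME minus SED 7 of 7 were lower and 6 passed, and in AX+ME minus SED 7 of 7 passed as lower, with median differences of -0.51 and -0.59, beside 3.34% and 6.93% of all features called. In AX minus SED 6 of 7 were lower, 0 passed and the median was -0.14. Of these genes 6 were tested from column 70 on: all 6 were lower in ME minus SED with 0 passing, as for all features (0%), and 6 passed as lower in AX+ME minus SED, beside 2.25% of all features. The summed scaled signal of these genes was 16.9 and 17.4 in ME, 21.6 and 21.8 in AX, 16.2 in both AX+ME samples, and 23.5 and 23.6 in SED. Other tissue lists moved in ME minus SED too. The medians were -1.53 for pituitary and hypothalamus, -0.34 for meninges and -0.31 for striatum, with 4 of 6, 2 of 5 and 1 of 5 tested genes called as lower. In AX+ME minus SED these medians were -0.08, -0.11 and -0.05, with 2, 0 and 1 called as lower.

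Of 8 skeletal and heart muscle genes, 6 were tested, and their summed scaled signal was 4.57 and 4.52 in ME, 4.36 and 4.28 in AX, 4.53 and 4.15 in AX+ME, and 5.95 and 6.34 in SED. Myh7, a slow myosin heavy chain, made up most of it and was lower in AX and in AX+ME (-0.62 in both, limma adjusted p = 0.0392 and 0.0323). Myh1, a fast one, passed in AX+ME (-0.46, limma adjusted p = 0.0471) at levels of -5.27 and -5.59 in AX+ME and -4.90 and -5.04 in SED. Myoglobin (Mb), a defining muscle gene, stayed at levels between -5.48 and -5.11, and Ckm and Tnnt3 were not tested. Of the muscle genes 4 were tested from column 70 on, and 0 passed in any comparison with SED, with 1 of 4 lower in ME, 1 in AX and 2 in AX+ME. The part of muscle, choroid plexus or any other tissue in the Cox8b result was not tested.

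Uqcrb, a subunit of complex III at its ubiquinone-binding site, was measured by 3 unsaturated probes that differed from one another. The brightest, in column 26, had levels of 4.80 and 4.77 in ME, 4.67 and 4.74 in AX, 4.69 and 4.70 in AX+ME, and 4.69 and 4.60 in SED. The probe in column 72 had 4.04 and 3.97 in ME, 3.90 and 3.95 in AX, 3.87 and 3.89 in AX+ME, and 4.34 and 4.28 in SED. The probe in column 62 had 3.81 and 3.71 in ME, 3.70 and 3.65 in AX, 3.69 and 3.68 in AX+ME, and 2.81 and 2.41 in SED. In processed levels, the 3 probes thus put SED level with the others, above them and below them. The raw signal of the column 26 probe was instead lowest in SED. It was 45.8% and 44.5% of the ceiling in SED, and 69.1% and 99.2% in ME. It was 69.5% and 95.5% in AX, and 76.9% and 83.5% in AX+ME. Of its 21 neighbouring spots, 7 deviated in the same way as defined above. The counts were 0 of 26 for column 72 and 5 of 24 for column 62.

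For ME, AX and AX+ME minus SED, the differences were 0.14, 0.07 and 0.06 in column 26, -0.30, -0.39 and -0.43 in column 72, and 1.15, 1.06 and 1.07 in column 62. The value of -0.43 for AX+ME is the one that passed from column 70 on (limma adjusted p = 0.0486), and ME and AX had adjusted p of 0.0898 and 0.0801 there. The column 72 probe deviated in SED by 0.402 with Cy3 and 0.343 with Cy5 from the mean of the other 3 samples, and the median of its 26 neighbouring spots deviated by 0.237 and 0.314. For Cox8b the same pairs were 0.321 and 0.270 for the gene, and 0.056 and 0.032 for its neighbours. What the surroundings contribute to the Uqcrb result was not tested. The call is therefore given for 1 probe and not for the gene.

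**Figure D3:**
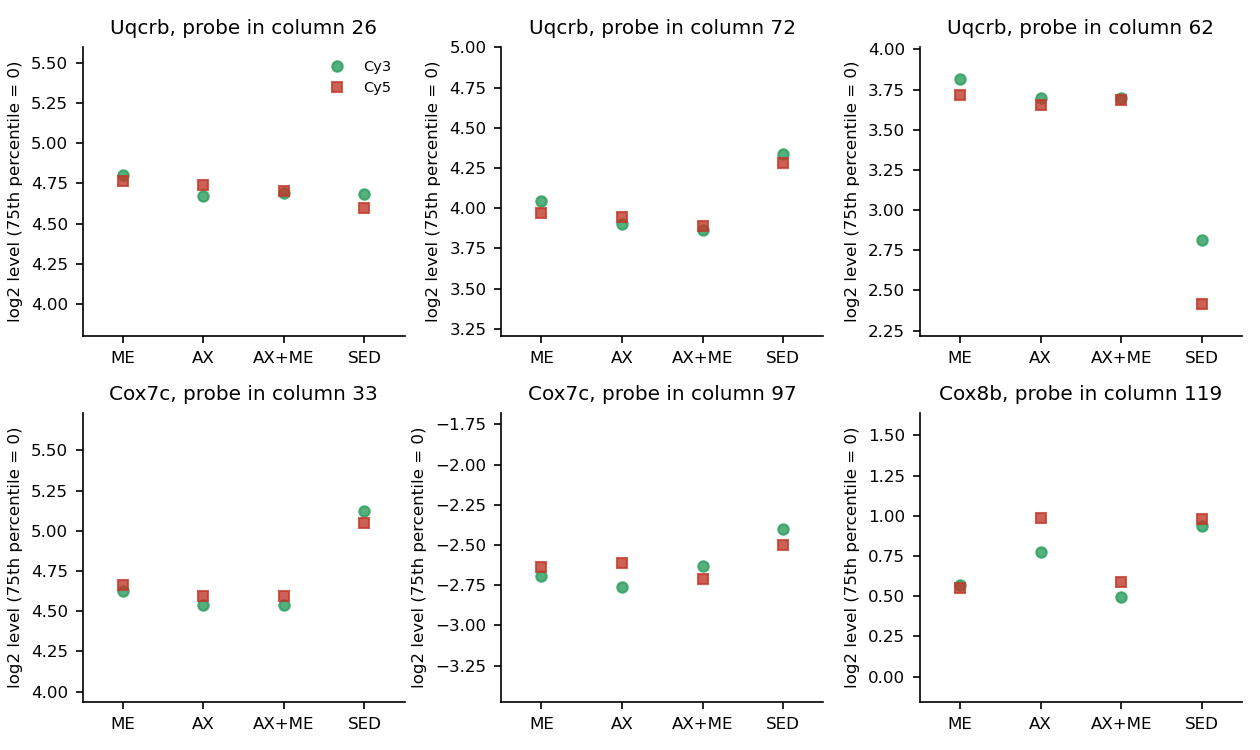
Log2 level (array's 75th percentile = 0) of the 3 Uqcrb probes, 2 Cox7c probes and the Cox8b probe in each sample, by group, with circles for Cy3 and squares for Cy5. Each panel spans the same height in log2 units around its own values. SED lies below the other groups for Uqcrb in column 62, above them in column 72, and beside them in column 26, and Cox8b is low in ME and AX+ME.

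Of the 39 tested genes, 5 had several unsaturated probes: Atp5pb of the ATP synthase stalk, Cox7c, Ndufb5, Ndufb6 and Uqcrb. Every probe of a gene had the same sign in 4 of the 5 for AX minus SED and for AX+ME minus SED, with Uqcrb the exception. For ME minus SED the signs were the same in 2 of 5, Cox7c and Ndufb5. The spread of the ME minus SED difference between the probes of 1 gene was 1.45 log2 in Uqcrb, 0.226 in Cox7c and at most 0.0682 in the other 3.

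The core subunits described here did not pass in any comparison. Ndufs1, which carries iron-sulphur clusters in the NADH-binding arm, had levels of 4.81 and 4.65 in ME, 4.68 and 4.63 in AX, 4.72 and 4.59 in AX+ME, and 4.85 and 4.61 in SED. The samples of all 4 groups overlapped. Its difference from SED had 95% intervals of -0.18 to 0.17 in ME, -0.25 to 0.09 in AX and -0.25 to 0.10 in AX+ME.

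Ndufs8, an iron-sulphur subunit near the ubiquinone site of complex I, differed from SED by 0.00 in ME, -0.08 in AX and -0.01 in AX+ME. Ndufv2 differed by 0.14, 0.08 and 0.12. In complex III, the Rieske iron-sulphur protein Uqcrfs1 had levels of 4.49 and 4.63 in ME, 4.36 and 4.58 in AX, 4.36 and 4.44 in AX+ME, and 4.61 and 4.62 in SED. Both AX+ME samples were below both SED samples, by 0.21 log2 (limma adjusted p = 0.125, interval -0.40 to -0.03), which did not pass after adjustment.

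Uqcrc1 ran the other way, with levels of 3.78 and 3.76 in ME, 3.75 and 3.66 in AX, 3.85 and 3.81 in AX+ME, and 3.71 and 3.65 in SED. AX+ME minus SED was 0.15 (limma adjusted p = 0.125) and AX+ME minus AX was 0.13 (adjusted p = 0.794). Atp5c1 differed from SED by -0.06 in ME, -0.13 in AX and -0.14 in AX+ME, with limma adjusted p of 0.558, 0.237 and 0.172.

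Among the tissue isoforms of complex IV, Cox8b was the one with a call. Cox4i2, the lung isoform of subunit IV, had levels between -0.46 and -0.21 in all 8 samples and differences from SED of 0.08 in ME, 0.12 in AX and 0.12 in AX+ME. Cox7a1, the heart and muscle isoform of subunit VIIa, had levels of 0.90 and 0.65 in ME, 0.87 and 0.72 in AX, 0.78 and 0.68 in AX+ME, and 1.08 and 0.80 in SED. Its AX+ME minus SED difference was -0.21 (limma adjusted p = 0.112), and within each dye SED was the highest sample.

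Other isoforms rested on probes below column 70, where 1 SED sample often stood apart. Cox6a2, the heart and muscle isoform of subunit VIa, had levels between 1.62 and 1.74 in the 6 ME, AX and AX+ME samples, and 1.82 and 2.49 in SED. Its Cy5 SED sample deviated by 0.857 log2 and the median of its neighbouring spots by 0.613. Cox6b1, the general isoform of subunit VIb, had 3.36 and 3.23 in ME, 3.20 and 3.11 in AX, 3.21 and 3.18 in AX+ME, and 2.92 and 3.51 in SED, so the 2 SED samples enclosed the rest. Cox7b2 was -3.58 and -3.73 in ME, -3.09 and -3.31 in AX, -3.31 and -3.26 in AX+ME, and -3.30 and -4.86 in SED, and its SE of 0.429 exceeded that of the other members.

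The testis isoform Cox6b2 lay between -0.27 and 0.05 in all samples, and Cox7a2l between 3.51 and 3.89. The AX minus SED difference of Cox7a2l, -0.27, had a limma adjusted p of 0.145. Ndufa4, now counted as a complex IV subunit, differed from SED by -0.05 in ME, -0.11 in AX and -0.15 in AX+ME. Its hypoxia-induced relative Ndufa4l2 differed by -0.06, -0.06 and -0.03. In complex I, Ndufs4 was between 3.76 and 3.88 in the 6 ME, AX and AX+ME samples, and 3.59 and 2.78 in SED, so both SED samples were low and the Cy5 one more so. Ndufa9 was between 3.68 and 3.87 in those 6, and 4.11 and 3.19 in SED, so its SED samples lay on either side of the rest. Neither passed in any comparison.

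**Figure D4:**
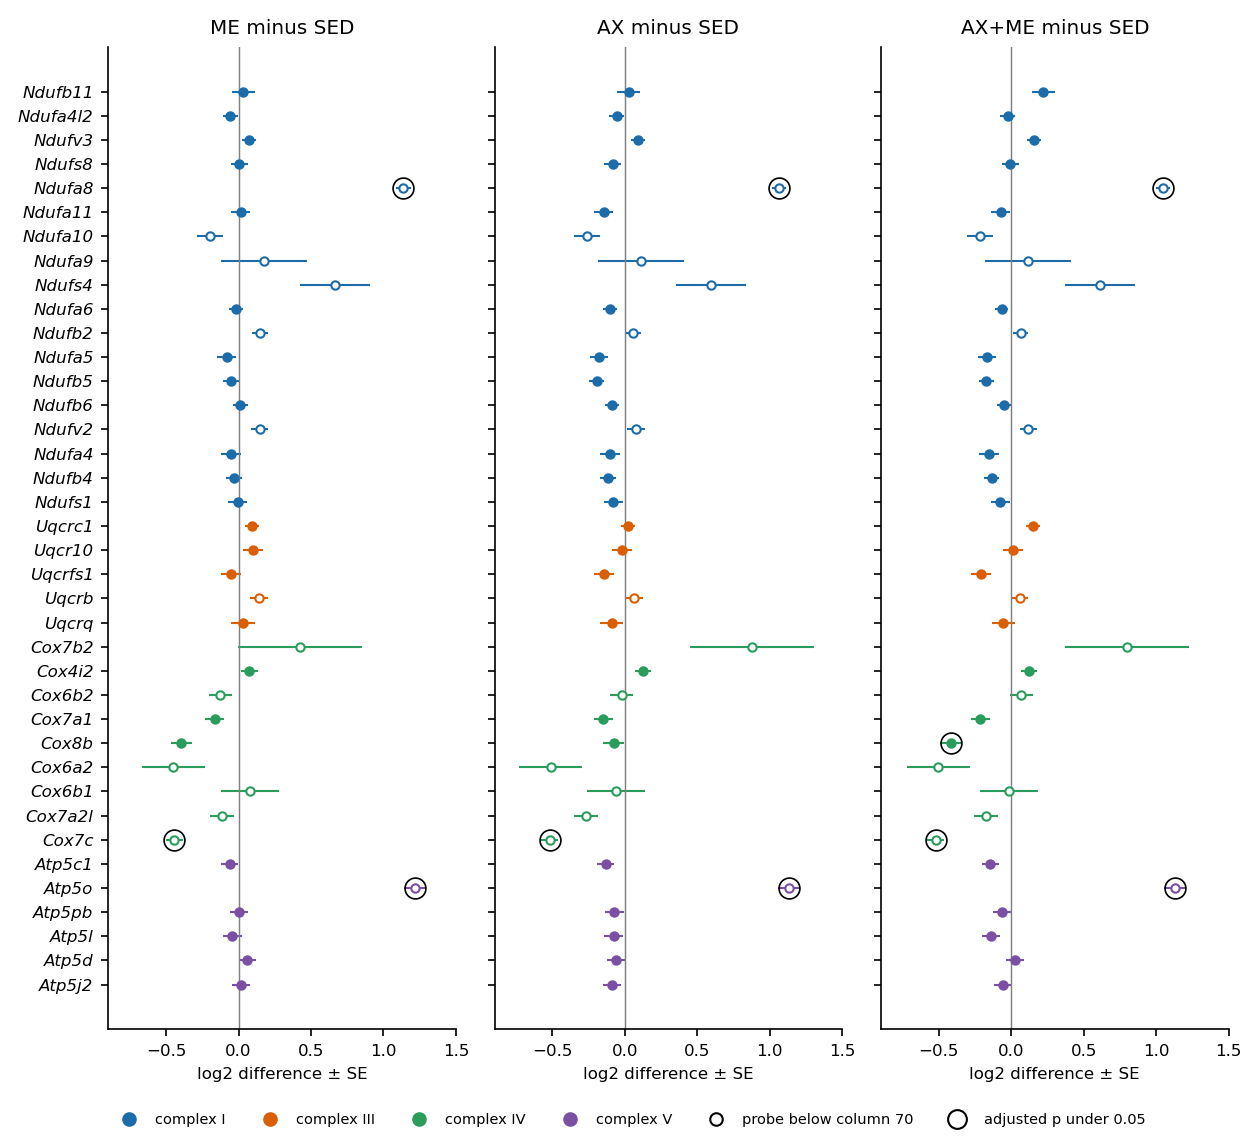
Log2 difference (horizontal axis) with its standard error for the tested genes (rows, by complex) in ME, AX and AX+ME minus SED. Open points mark probes below column 70 and large circles mark a limma adjusted p under 0.05. Ndufa8 and Atp5o stand at 1.05 to 1.22 and Cox7c at -0.52 to -0.44 in every panel, Cox8b is circled in AX+ME, and most other genes lie near 0.

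As a group, the members lay near genes of like brightness, defined as the other tested genes with a mean level between -0.293 and 4.71. The median difference of the 39 members was 0.005 in ME minus SED, beside -0.056 for genes of like brightness and -0.052 for all features. In AX minus SED it was -0.079, beside -0.072 and -0.032. In AX+ME minus SED it was -0.051, beside -0.073 and -0.026. The member median was higher than that of like genes in ME and AX+ME and lower in AX. In ME minus SED 13 members (33.3%) were lower in both dyes and 12 (30.8%) higher, beside 43.8% and 23.2% of all features. In AX minus SED 22 (56.4%) were lower and 9 (23.1%) higher, beside 39.1% and 27.1%. In AX+ME minus SED 18 (46.2%) were lower and 11 (28.2%) higher, beside 39.2% and 30.5%.

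Members also differed by the position of their probe. The 25 members with a probe from column 70 on had medians of -0.005 in ME, -0.088 in AX and -0.062 in AX+ME minus SED, and the 14 members below column 70 had 0.143, 0.061 and 0.067. By complex, the medians over all columns for I, III, IV and V were 0.005, 0.095, -0.126 and 0.011 in ME minus SED, -0.083, -0.020, -0.077 and -0.075 in AX minus SED, and -0.026, 0.010, -0.176 and -0.060 in AX+ME minus SED. Complex IV, mostly dim isoforms, had the lowest median in ME and in AX+ME.

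In the fit from column 70 on, 11 of 27 members (40.7%) were lower in both dyes in ME minus SED, beside 48.7% of all features. In AX+ME minus SED 16 (59.3%) were, beside 43.4% of all features, 55.1% of genes of like brightness and 60.8% of genes within the members' middle range of levels. AX minus SED was lower in both dyes for 20 of 27 members, 74.1%, beside 42.8% of all features, 55.0% of genes of like brightness and 62.0% of genes within the members' middle range of levels. Complex V had 5 of 5 lower in both dyes, complex I 10 of 13, complex III 3 of 5 and complex IV 2 of 4. The member median was -0.090, and other genes with raw signals of at least 50% of the ceiling had -0.085. The median difference of other genes fell with brightness in this comparison, to -0.085 at levels from 4 to 5, where the 14 members had -0.098.

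Adding astaxanthin to running was compared directly as AX+ME minus ME, a difference that holds no SED value, although the SED samples enter the error estimate of the fit. No member passed, as did no feature over all columns (0%), where 2311 features had an unadjusted p under 0.05 and no member did. With the SED samples left out of the fit, 0 members and 0 features passed, and 3644 features had an unadjusted p under 0.05. The members nearest to the threshold were Cox6b2 at 0.20 (adjusted p = 0.584), Ndufb11 at 0.19 (adjusted p = 0.591) and Uqcrfs1 at -0.16 (adjusted p = 0.599), by limma. From column 70 on, 3 features passed (0.0178%), and no member.

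The members nonetheless leaned one way. Of 39, 25 were lower in both dyes and 7 higher in both, or 64.1% lower, beside 27.2% of all features and 39.8% of genes of like brightness. The share higher in both dyes was 17.9%, beside 37.8% of all features, and the median was -0.063 against -0.015 for like genes. Of genes within the members' middle range of levels, a closer match in brightness, 51.6% were lower in both dyes, with a median of -0.036. The lean was found in the bright members. All 18 with a raw signal of at least 50% of the ceiling were lower, 16 of them in both dyes (88.9%), with a median of -0.084. Among the 855 other genes this bright, 629 were lower, 463 of them in both dyes (54.2% of the 855), with a median of -0.044. Of the 21 dimmer members 9 were lower in both dyes, with a median of -0.022.

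The dim areas lay on the SED arrays, so leaving out their columns is no test of this lean. The counts from column 70 on describe a part of the bright members. Among the 529 other genes this bright there, 386 were lower in AX+ME than in ME, 282 of them in both dyes (53.3%), with a median of -0.044. Of all features there, 27.2% were lower in both dyes. From column 70 on, 14 of 14 bright members were lower in AX+ME than in ME, 13 in both dyes (92.9%), with a median of -0.084. Examples are Ndufb5, a membrane-arm subunit, with 4.48 and 4.54 in AX+ME, and 4.65 and 4.61 in ME, and Atp5j2 with 4.58 and 4.55 in AX+ME, and 4.72 and 4.56 in ME. Ndufb5 differed by -0.12 (95% interval -0.26 to 0.02) and Atp5j2 by -0.07 (95% interval -0.25 to 0.10).

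Brightness and scaling were set beside this result. The 18 bright members had median differences of -0.112 with Cy3 and -0.062 with Cy5, while the scaling differed in sign between the dyes. The 75th percentile used for scaling was 1950 and 2079 in AX+ME, and 1651 and 2317 in ME, for Cy3 and Cy5. In 35 member genes with probes saturated on all 8 arrays, which cannot change in raw signal, the scaled AX+ME minus ME difference was -0.247 with Cy3 and 0.162 with Cy5, beside -0.240 and 0.157 set by the scaling. Other genes' median difference was 0.059 at levels from -3 to -2 and -0.042 at levels from 4 to 5. The 57 tested cytosolic ribosomal protein genes, also bright, had a median of -0.072, with 41 lower. Among genes of like brightness to the members 6162 of 10802 were lower, and among all features 11519 of 26173. The part of brightness or scaling in the members' lean was not tested beyond these comparisons.

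**Figure D5:**
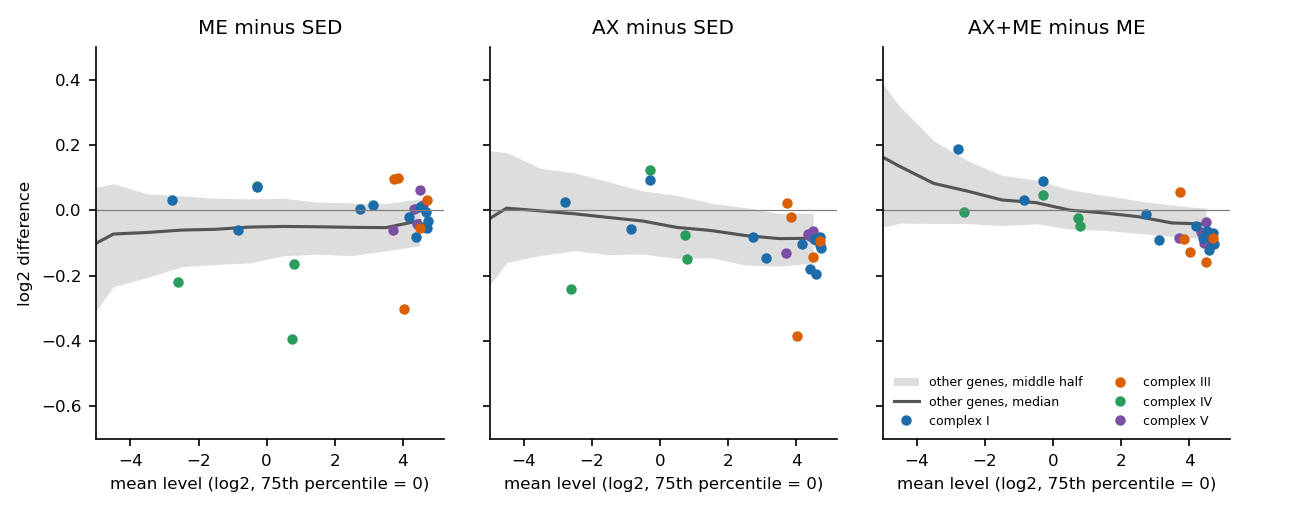
Log2 difference against mean level (log2, 75th percentile = 0) for members with a probe from column 70 on, coloured by complex, over the median (line) and middle 50% (grey band) of other genes. In AX minus SED and AX+ME minus ME the line slopes down with level, and the bright members, at levels above 4, lie mostly on or just below it.

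Adding running to astaxanthin, AX+ME minus AX, gave 0 calls among members and among all features (0%), with 1658 features at an unadjusted p under 0.05. By limma, Cox8b came nearest to the threshold with the value given above, followed by Uqcrc1 and by Ndufb11 at 0.19 (adjusted p = 0.805). The member median was 0.017, beside 0.003 for like genes, and 17 members (43.6%) were higher in both dyes and 6 (15.4%) lower in both, beside 33.2% and 26.5% of all features. From column 70 on 0 passed there as well.

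The interaction asked whether the 2 treatments together differed from the sum of each alone. It passed for Atp5o at -1.22 (limma adjusted p = 0.0418) and Ndufa8 at -1.15 (adjusted p = 0.0336), which is 5.13% of members beside 0.581% of all features (0.0993% higher, 0.481% lower). Over all columns 9 members were lower in both dyes and 15 higher, 23.1% and 38.5%, beside 20.6% and 40.3% of all features. Cox7c at 0.44 did not pass (adjusted p = 0.147). Both calls were lost without any 1 of the ME, AX or AX+ME samples, as were all interaction calls among all features. In both called genes the ME, AX and AX+ME samples had nearly equal levels above SED, as given above, and both probes lay below column 70. From column 70 on 0 of 27 members passed, beside 0% (2306 features at unadjusted p under 0.05), and their median was 0.032.

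Other genes of the pathway showed few calls, each lower in AX+ME than in SED over all columns, where 6.93% of all features passed. None of these genes passed from column 70 on. Of 14 complex I assembly genes 1 passed, Ndufaf1, a factor that helps build the membrane arm (-0.35, limma adjusted p = 0.0474). Of 12 complex IV assembly genes 1 passed, Cox11, a copper chaperone (-0.55, adjusted p = 0.0415), and of 3 ATP synthase assembly genes 1 passed, Tmem70 (-0.31, adjusted p = 0.0443). None of 6 complex III assembly genes passed. None of 10 citrate cycle and pyruvate dehydrogenase genes passed, with medians of -0.04 in ME, -0.12 in AX and -0.06 in AX+ME minus SED. None of the 6 tested genes of complex II and the electron carriers passed, with medians of -0.13, -0.17 and -0.19.

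The 12 regulators of mitochondrial biogenesis, which include Ppargc1a, the factor that coactivates respiratory genes, and Tfam, which maintains mitochondrial DNA, had 0 calls in any of the comparisons with SED. Of them 11 were lower in ME, 11 in AX and 9 in AX+ME, with medians of -0.11, -0.08 and -0.12, and the all-feature medians were -0.052, -0.032 and -0.026. Among all 26173 features, 15839 were lower in ME, 14634 in AX and 14111 in AX+ME. In the fit without the dim areas 9 regulators were tested, of which 7, 6 and 5 were lower in ME, AX and AX+ME, with medians of -0.083, -0.041 and -0.0056 beside all-feature medians of -0.059, -0.042 and -0.038.

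Nuclear respiratory genes are known for promoters without a TATA box, bound by the factors NRF1 and GABP. Promoters from RefSeq (GRCm38.p6), 250 bases before to 50 after the start, were matched for 65 of the 80 genes, and 5 motifs were searched on both strands. The NRF1-type palindrome, GCGCA and GCGC around any 1 letter, was found in 15 genes, 23.1%, beside 5.19% of the promoters of 27025 genes. CCGGAAG, the ETS and GABP core, was found in 15, 23.1% beside 9.93%. AAGATGG, the YY1 core, was found in 11, 16.9% beside 7.28%, AAGGTCA, an estrogen-related receptor site, in 7, 10.8% beside 5.38%, and TATAAA in 8, 12.3% beside 15.7%. No motif searched is contained in another on either strand, and a match only describes the sequence.

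The promoters of 3 genes the results turn on are shown 5′ to 3′ on the gene's strand, with the matched motif in capitals. Ndufa8 (chr2:36049289-36049588, minus strand) and Atp5o (chr16:91931581-91931880, minus strand) each hold 1 match to the NRF1-type palindrome. Cox8b (chr7:140900397-140900696, minus strand) holds 1 TATAAA, shown as the contrast among the called genes.
Ndufa8: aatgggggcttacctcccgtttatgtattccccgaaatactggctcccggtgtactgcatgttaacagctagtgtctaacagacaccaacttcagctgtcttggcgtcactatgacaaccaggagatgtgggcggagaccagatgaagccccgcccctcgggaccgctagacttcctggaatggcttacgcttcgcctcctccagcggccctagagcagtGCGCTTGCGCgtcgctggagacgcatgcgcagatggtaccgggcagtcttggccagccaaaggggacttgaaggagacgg
Atp5o: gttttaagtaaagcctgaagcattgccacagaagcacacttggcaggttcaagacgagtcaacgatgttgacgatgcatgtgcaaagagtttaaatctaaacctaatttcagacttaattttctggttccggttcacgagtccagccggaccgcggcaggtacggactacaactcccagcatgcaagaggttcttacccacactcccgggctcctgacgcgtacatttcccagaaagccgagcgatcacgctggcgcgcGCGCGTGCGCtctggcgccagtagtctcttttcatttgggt
Cox8b: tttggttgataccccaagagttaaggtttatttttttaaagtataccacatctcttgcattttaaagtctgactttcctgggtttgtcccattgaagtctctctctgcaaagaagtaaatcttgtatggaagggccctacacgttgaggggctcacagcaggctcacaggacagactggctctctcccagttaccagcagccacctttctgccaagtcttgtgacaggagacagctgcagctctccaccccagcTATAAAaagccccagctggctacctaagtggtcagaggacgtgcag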

How the data were processed

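Per the labels' protocols, total RNA of hippocampus was labelled with Cy3 or Cy5 for an Agilent SurePrint G3 mouse array. Per the submitters' processing notes, spots were read with Agilent Feature Extraction 11.0.1.1. Per the file headers, the intensity used here is the sample's own-dye processed signal, background-subtracted and detrended within each array, and the probe design refers to mm9. The deposited value table held the same intensity rounded (difference at most 0.5). It was used as an alternative.

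Of 59305 spots that are not controls, those flagged as outliers were left out and spots of 1 probe were averaged (55681 probes, 26592 with a gene symbol). The intensity was divided by each array's 75th percentile, floored at 0.001 and turned to log2. Probes that both samples of some group showed well above background were kept (37445). The brightest probe per gene with no saturation on any of the 8 arrays was used. With limma 3.58.1 in R 4.3.3, group and dye were fitted over all 8 samples, for 26173 features, and again for 16820 from column 70 on. P-values were adjusted by Benjamini-Hochberg over each whole fit, with a threshold of 0.05. The residual degrees of freedom were 3, and the 2 samples per group limit the precision. The fit was tested on simulated data. A difference between groups lies beyond the spread between samples where it passed this test.

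The array 75th percentile was 1416 to 2317, 919 to 1474 spots were saturated, and 63.2% to 76.2% of spots were well above background. Sample numbers mark the dye, which is already in the fit; deviations of same-dye samples correlated at 0.0798 to 0.141.

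The members and lists were chosen with earlier results of these data known. Named genes are those past the threshold with the same sign in both dyes, otherwise the 3 with the smallest unadjusted p; the brightest and dimmest of each complex; tissue isoforms; core subunits; and genes whose probes on either side of column 70 differ in sign. Further examples were chosen after their values were seen. Alternatives covered background, scaling, saturation, probe choice, filters, the dye term, the prior and left-out samples. Probe sequences were not used here. One tested gene is not reported here and is left out of the figures, though it enters the counts and medians. Normexp was run on median signals.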

Additional observations from a re-analysis of the deposited data

Results flagged for a closer look

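The interaction of running and diet, the running difference under astaxanthin less that under placebo, passed the test for 2 genes. Atp5o had an interaction of -1.22 log2 and Ndufa8 of -1.15 log2. For Atp5o, ME minus SED was 1.22 and AX+ME minus AX was 0.00 (95% interval -0.20 to 0.19). For Ndufa8, ME minus SED was 1.14 and AX+ME minus AX was -0.01 (interval -0.14 to 0.12). Both probes lie below column 70, and no other unsaturated probe of either gene was tested. Without SED replicate 1 the Atp5o interaction was -1.12 (limma adjusted p = 0.0198), and without SED replicate 2 it was -1.32 (adjusted p = 0.0286). Both calls were lost without any 1 of the 6 ME, AX and AX+ME samples, as were all interaction calls among all features. Groups of 2 samples are too small for a search for outlying samples.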

How the results depend on the processing

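Atp5o, Ndufa8, Cox7c and Cox8b kept the direction of their calls under every alternative that measured them, except Cox7c with normexp, where it reversed to 0.12 (ME minus SED), 0.030 (AX minus SED) and 0.031 (AX+ME minus SED). Cox8b in AX+ME minus SED passed in 4 of 19 alternatives (limma adjusted p = 0.0189 to 0.227). Leaving out samples aside, over the 6 comparisons 62 recomputed counts of passing members stayed within 1.5 times and 12 did not. The medians were judged against the standard deviation between the members' Cy3 and Cy5 median differences in the reported fit. This rests on only 2 values per comparison. By it, 49 medians moved by less and 25 by more. With a sample left out, 20 counts stayed within 1.5 times and 28 did not, and 33 medians moved by less and 15 by more. In AX+ME minus ME and AX+ME minus AX no member passed in the reported fit or in any alternative. Each of these 2 comparisons supplied 21 of the counts that stayed, 8 of them with a sample left out. Fewer probes did not always go with fewer calls among all features. With probes above background on all 8 arrays, 23376 features gave 1391 calls in ME minus SED, against 875 of 26173 in the reported fit. The causes of the changes in counts and medians were not tested.

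Passing members numbered 0 (ME minus SED), 0 (AX minus SED), 1 (AX+ME minus SED) and 0 (interaction) from column 70 on. Normexp gave 5 in AX minus SED and 7 in AX+ME minus SED, the mean of all probes gave 2 in AX+ME minus SED, and no filter on dim probes gave 0 for the interaction. Keeping only members with raw signal under 50% of the ceiling, chosen after seeing the data, gave 1, 1, 2 and 1 in ME, AX and AX+ME minus SED and the interaction.

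The ME minus SED median was -0.134 with normexp, 0.049 with quantile normalization, 0.023 with the percentile over probes well above background, -0.020 from column 70 on, -0.053 with saturated probes kept, -0.0049 with the mean of probes and 0.016 under 50% of the ceiling. AX minus SED was -0.200 with normexp and 0.00073 with quantile. AX+ME minus SED was -0.144 with normexp, 0.037 with quantile, -0.086 with saturated probes and -0.0064 under 50%. AX+ME minus ME was -0.030 with quantile and -0.022 under 50%. AX+ME minus AX was 0.0022 with normexp, 0.024 from column 70 on, 0.011 with saturated probes and 0.031 under 50%. The interaction was 0.166 with normexp, -0.020 with quantile, -0.0032 with the other percentile, 0.032 from column 70 on, 0.072 with saturated probes and 0.055 under 50%. Normexp moved the median of all features to -0.149, -0.125 and -0.116 in ME, AX and AX+ME minus SED and to 0.147 in the interaction.

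Leaving out each sample in turn gave 0 to 8 passing members in ME minus SED, 0 to 10 in AX minus SED, 0 to 10 in AX+ME minus SED, 0 in AX+ME minus ME, 0 in AX+ME minus AX and 0 to 7 for the interaction. Medians ran from -0.025 to 0.024, -0.101 to -0.053, -0.069 to -0.011, -0.081 to -0.033, -0.0064 to 0.050 and -0.0026 to 0.060 in the same order. The counts were highest without SED replicate 1, where 5161, 5204 and 5527 of all features passed in ME, AX and AX+ME minus SED, against 875, 971 and 1813 with it.

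Without the dye term, which is also the replicate block here, 3, 3, 3, 0, 0 and 2 members passed, and the only call lost was Cox8b in AX+ME minus SED (-0.42, limma adjusted p = 0.0667). All features called in AX+ME minus SED then numbered 1139.

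Counts of all features called in ME, AX and AX+ME minus SED and the interaction were 2472, 4120, 5877 and 507 with normexp, 1953, 2378, 3569 and 365 with a trended prior, 277, 341, 510 and 0 with no filter, and 0, 0, 378 and 0 from column 70 on. The interaction had 152 in the reported fit and 3236 without SED replicate 1. With probes above background on all 8 arrays, 1391, 1560 and 258 passed in ME, AX and the interaction. Quantile normalization split ME minus SED calls as 529 higher and 218 lower, against 528 and 347. Saturation limited 40 of the 80 genes to a lower bound on at least 1 array.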
